A study of Mus musculus with 6 samples.

Results

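The Schlafen family was followed in tumors of mice with and without inducible deletion of Tmem173, the gene of the innate immune adaptor STING. Its members here are Slfn1, Slfn2, Slfn3, Slfn4, Slfn5, Slfn8 and Slfn9, taken by gene name from the deposited gene table. They are 7 of the 54532 listed genes, and all 7 had reads in all 6 tumors. A mean of at least 0.5 FPKM (read counts scaled for gene length and sequencing depth) over the 6 tumors was required for a test. Of the 7 members, 6 passed this filter with 16426 genes in all, and Slfn3 did not.

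RNA-seq of whole tumors was compared between 3 samples from Tmem173fl/fl and 3 from Tmem173iΔmye mice, labelled WT and CRE in the deposited data. Mice of both groups carried Tmem173 flanked by loxP sites. They were given azoxymethane (AOM), a colon carcinogen, and 3 rounds of dextran sodium sulfate (DSS), which injures the colon lining. Both groups received tamoxifen (TAM) after tumors had formed (AOM+DSS-L). Tmem173iΔmye mice also carried Lyz2-Cre ert2, a recombinase switched on by TAM and driven by a promoter of myeloid cells such as macrophages, monocytes and neutrophils. The paper also uses dendritic cells grown from the marrow of such mice as STING knockout cells. Which cells of these tumors lost or kept the gene was not measured here. The comparison asks how loss of myeloid STING once tumors are present alters expression in them. The sources used here state no age for the AOM+DSS-L mice and do not say whether each sample held 1 tumor or several, and p-values measure the spread between these 6 samples.

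Schlafen genes are a cluster of interferon-inducible genes of mammals. Their proteins share a core domain that binds and, in several members, cleaves transfer RNA. The short forms (Slfn1 and Slfn2) and intermediate forms (Slfn3 and Slfn4) hold little beyond this core, while the long forms (Slfn5, Slfn8 and Slfn9) add a helicase-like domain. They are known for restraining proliferation and viral replication. Slfn2 is needed for the quiescence of T cells and monocytes, Slfn4 is a gene of activated macrophages and of myeloid cells in inflamed stomach, and Slfn3 has been tied to differentiation of the intestinal epithelium.

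All 7 members lay on chromosome 11 of GRCm38 between positions 82951349 and 83215154, a span of 264 kb. Slfn5 stood first on the plus strand (82951349 to 82964840), followed on the minus strand by Slfn9 (82978390 to 82991830) and Slfn8 (83002158 to 83020810). The short and intermediate members followed on the plus strand, with Slfn2 at 83065112 to 83070678, Slfn1 at 83116849 to 83122670, Slfn4 at 83175186 to 83190216 and Slfn3 at 83191330 to 83215154.

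The 250 bases upstream of each annotated start were read from RefSeq sequence of GRCm38.p6, in which all 7 members had a match. They are shown for Slfn4 and Slfn5, the members with the smallest p-values below, and for Slfn8 and Slfn9, the long members whose groups overlapped. Capitals mark the core of the interferon-stimulated response element (ISRE), the element bound by interferon-activated factors, searched as a GAAA, any 2 bases and a second GAAA, or TTTC, 2 bases and TTTC on the other strand. The Slfn4 window is chr11:83174936-83175185 on the plus strand, and its capitals are matches with 1 mismatch. The Slfn9 window is chr11:82991831-82992080 and the Slfn8 window chr11:83020811-83021060, both on the minus strand, and their capitals are exact matches. For Slfn5, 30 bases around its exact match are given, chr11:82951937-82951966 on the plus strand. The RefSeq start of Slfn5 is 82952102, inside the span that the table gives the gene, so its window lies downstream of the table's first position and 117 of its 250 bases are annotated as exon.
Slfn4: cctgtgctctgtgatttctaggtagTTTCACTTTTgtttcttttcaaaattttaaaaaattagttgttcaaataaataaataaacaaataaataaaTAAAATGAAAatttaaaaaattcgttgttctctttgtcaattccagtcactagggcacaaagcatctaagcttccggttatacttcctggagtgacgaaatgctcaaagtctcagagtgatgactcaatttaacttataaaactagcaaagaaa
Slfn9: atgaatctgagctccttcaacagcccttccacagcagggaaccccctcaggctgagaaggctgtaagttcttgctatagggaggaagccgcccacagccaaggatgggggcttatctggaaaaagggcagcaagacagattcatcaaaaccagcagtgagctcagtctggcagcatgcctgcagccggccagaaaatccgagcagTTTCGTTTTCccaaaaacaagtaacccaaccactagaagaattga
Slfn8: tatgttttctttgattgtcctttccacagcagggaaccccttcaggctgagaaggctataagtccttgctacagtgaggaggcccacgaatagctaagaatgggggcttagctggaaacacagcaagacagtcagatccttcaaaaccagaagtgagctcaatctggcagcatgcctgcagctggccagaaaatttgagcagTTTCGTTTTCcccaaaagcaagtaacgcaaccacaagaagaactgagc
Slfn5: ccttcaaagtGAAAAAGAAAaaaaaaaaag

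The core matched exactly in 3 of the 7 members, at -155 to -146 from the RefSeq start of Slfn5, -48 to -39 from that of Slfn8 and -45 to -36 from that of Slfn9. Slfn8 has a second RefSeq start, from which the same match lies at -136 to -127. Over all 32851 promoter windows of the same length, the core matched exactly in 978, or 2.98%. Each of the other 4 members held it with 1 mismatch, as did 31.4% of all windows if exact matches are counted in. In Slfn4 these matches lay at -225 to -216 (TTTCACTTTT) and -154 to -145 (TAAAATGAAA), in Slfn2 at -59 to -50 (TTTCACTTCC), in Slfn1 at -33 to -24 (AAAACTGAAA) and in Slfn3 at -20 to -11 (GTAAAAGAAA). A second element of interferon signalling, the gamma-activated site core TTCNNNGAA, which reads the same on both strands, was in none of the 7 members' windows and in 7.02% of all windows. The windows of Slfn1, Slfn2 and Slfn4 shared the 11 bases ACTTCCTGGAG, at -74 to -64, -55 to -45 and -73 to -63. They were picked as the longest stretch common to these windows, and a stretch of this length is rare in any case. On either strand these 11 bases occurred in 20 of the 32851 windows (0.0609%), these 3 windows included. In Slfn2 the 11 bases overlapped the ISRE-like match. Slfn8 and Slfn9 had 20 identical bases in a row, tctggcagcatgcctgcagc. These are matches of letters, and no binding was measured.

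Slfn4 was the most abundant member, with a mean of 51.8 FPKM over the 6 tumors, rank 1024 of the 16426 tested genes. Slfn2 followed at 18.5 FPKM, Slfn9 at 9.02, Slfn5 at 3.18, Slfn1 at 1.62, Slfn8 at 1.10 and Slfn3 at 0.168 FPKM. This order held tumor by tumor in 6 of 6 tumors between Slfn4 and Slfn2, between Slfn9 and Slfn5 and between Slfn8 and Slfn3. It held in 5 tumors between Slfn2 and Slfn9 and between Slfn5 and Slfn1, and in 4 between Slfn1 and Slfn8. Each member's range over the 6 tumors overlapped that of its neighbour in this order except for Slfn8 and Slfn3.

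**Figure D1:**
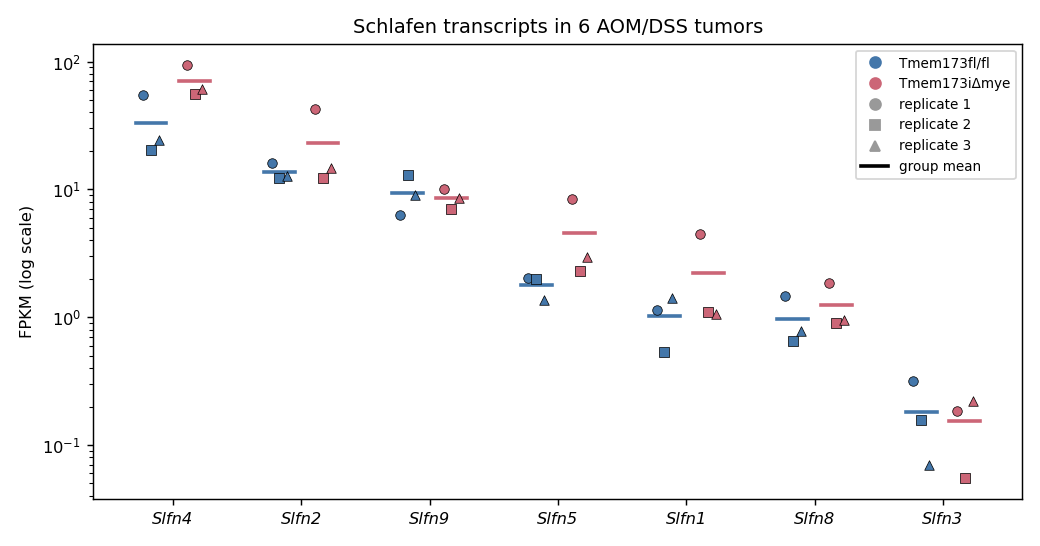
FPKM of each Schlafen gene on a log axis, with a point for each tumor, shaped by replicate number, in Tmem173fl/fl (blue) and Tmem173iΔmye (red), and a line at the group mean. Tmem173iΔmye replicate 1 is the highest tumor for Slfn4, Slfn2, Slfn5, Slfn1 and Slfn8, and the groups do not overlap for Slfn4 and Slfn5.

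Slfn4 and Slfn5 were the members whose groups did not overlap, and in both every Tmem173iΔmye tumor stood above every Tmem173fl/fl tumor. Slfn1 and Slfn2 had higher means in Tmem173iΔmye tumors that came from replicate 1, Slfn8 differed little, and Slfn9 and Slfn3 had means slightly lower in Tmem173iΔmye tumors. In edgeR's quasi-likelihood test, adjusted by the Benjamini-Hochberg method over the 16426 genes, no member had an adjusted p-value under 0.05. Of the 6 tested members, 2 had an unadjusted p-value under 0.05, both higher in Tmem173iΔmye tumors, against 3.23% of all tested genes. The same 2 also had a log2 fold change of at least 1, against 1.26% of all genes, and no overlap between the groups by CPM (counts scaled to the library's total), against 6.03%. The log2 fold change was above 0 for 5 of 6 members, against 49.4% of all genes, and the members' median was 0.92 against -0.0042 for all tested genes. Over the whole table, edgeR put 0 genes (0.0%) under an adjusted 0.05 and 1008 (6.14%) under an unadjusted 0.05, of which 349 (2.12%) also differed by at least 1 on the log2 scale. DESeq2 put 28 of 15132 (0.185%) under an adjusted 0.05, no member among them. Without Tmem173iΔmye replicate 1, 0 members had an unadjusted p under 0.05 by edgeR and 3 were above 0, and without Tmem173fl/fl replicate 2 or 3 the former count was also 0.

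Slfn4, the intermediate member of activated macrophages, had 3386, 1213 and 1631 counts in replicates 1, 2 and 3 of Tmem173fl/fl and 5960, 3547 and 3809 counts in those of Tmem173iΔmye. In CPM, scaled with TMM factors, the values were 220.1, 80.9 and 97.9 against 376, 223 and 242. Every Tmem173iΔmye tumor was above every Tmem173fl/fl tumor, but only just, since Tmem173fl/fl replicate 1 came close to Tmem173iΔmye replicate 2. The means were 33.2 ± 18.7 FPKM (SD, n = 3) and 70.5 ± 21.1 FPKM (SD, n = 3). On the log2 scale Tmem173iΔmye was 1.08 above Tmem173fl/fl (SE 0.39, unadjusted p = 0.0251 and adjusted p = 0.742 by edgeR). An exact two-sided permutation test gave p = 0.1, the smallest value that 3 tumors against 3 allow. DESeq2 gave a log2 fold change of 1.07 (unadjusted p = 0.00402, adjusted p = 0.344). The unadjusted edgeR p of Slfn4 was 0.0878 without Tmem173iΔmye replicate 1, 0.0781 without Tmem173fl/fl replicate 2 and 0.0854 without Tmem173fl/fl replicate 3, with log2 fold changes of 0.81, 0.82 and 0.90. Without Tmem173fl/fl replicate 1, the tumor nearest to the other group, the log2 fold change was 1.65.

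Slfn5, a long member found in the nucleus, had 201, 189 and 144 counts in Tmem173fl/fl and 848, 231 and 294 counts in Tmem173iΔmye tumors. These were 2.03, 2.0 and 1.36 FPKM against 8.44, 2.28 and 2.94 FPKM, without overlap. Tmem173iΔmye replicate 1 was far above the rest, and the 2 other tumors of its group lay just above the Tmem173fl/fl tumors. The means were 1.8 ± 0.380 FPKM (SD, n = 3) and 4.55 ± 3.38 FPKM (SD, n = 3). The difference was 1.34 on the log2 scale (SE 0.48, unadjusted p = 0.0241 and adjusted p = 0.742 by edgeR), and the exact permutation p was 0.1. Without Tmem173iΔmye replicate 1 it was 0.54, with an unadjusted p of 0.0738 from edgeR. It was 1.41 (unadjusted p = 0.0554) without Tmem173fl/fl replicate 2 and 1.18 (unadjusted p = 0.0799) without Tmem173fl/fl replicate 3, both from edgeR.

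The short members, Slfn1 and Slfn2, followed one tumor. Slfn2 had 418, 306 and 356 counts in Tmem173fl/fl and 1130, 325 and 385 in Tmem173iΔmye tumors, which is 16.1, 12.3 and 12.8 against 42.8, 12.2 and 14.6 FPKM. Replicate 1 of Tmem173iΔmye stood alone, and the other 2 tumors of that group lay at the level of Tmem173fl/fl. Slfn2 differed by 0.75 on the log2 scale (SE 0.45, adjusted p = 0.746 by edgeR), and -0.03 without that tumor. Slfn1, first described as a gene that slows the growth of developing T cells, had 33, 15 and 44 counts against 132, 33 and 31. In FPKM the values were 1.13, 0.538 and 1.41 against 4.46, 1.11 and 1.05, so the groups overlapped in all but that same tumor. Slfn1 differed by 1.09 on the log2 scale (SE 0.65, adjusted p = 0.745 by edgeR), and 0.06 without Tmem173iΔmye replicate 1. The exact permutation p was 0.6 for both short members.

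The long members Slfn8 and Slfn9, neighbours on the chromosome and relatives in sequence, differed less between the groups. Slfn8 had 93, 40 and 54 counts in Tmem173fl/fl and 121, 59 and 62 in Tmem173iΔmye tumors, with replicate 1 the highest in both groups. Its means were 0.965 ± 0.430 FPKM (SD, n = 3) and 1.24 ± 0.539 FPKM (SD, n = 3), with a log2 fold change of 0.36 (edgeR, SE 0.43, adjusted p = 0.840) and of -0.06 without Tmem173iΔmye replicate 1. Slfn9 had 585, 1163 and 897 counts against 962, 676 and 812. In Slfn9 the highest and the lowest tumor were both Tmem173fl/fl, and the Tmem173iΔmye tumors lay between them. Its means were 9.43 ± 3.40 FPKM (SD, n = 3) and 8.62 ± 1.54 FPKM (SD, n = 3), with a log2 fold change of -0.13 (edgeR, SE 0.26, adjusted p = 0.911). The exact permutation p was 0.5 for Slfn8 and 0.9 for Slfn9.

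Slfn3, the member tied to the epithelium, had 17, 8 and 4 counts in Tmem173fl/fl and 10, 3 and 12 in Tmem173iΔmye tumors. Its means of 0.182 ± 0.126 FPKM (SD, n = 3) and 0.154 ± 0.0879 FPKM (SD, n = 3) lay under the filter, and at this depth a difference was not detectable. In the fit of all 30939 genes with any count its log2 fold change was -0.22 (edgeR, SE 0.71, adjusted p = 0.945).

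**Figure D2:**
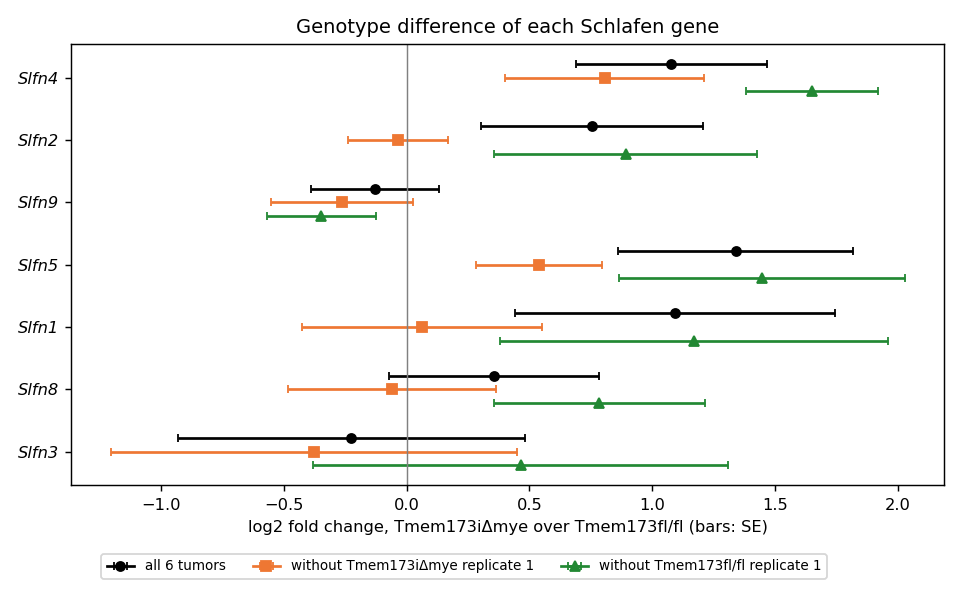
Log2 fold change of Tmem173iΔmye over Tmem173fl/fl for each Schlafen gene from edgeR, with bars of 1 SE, in all 6 tumors (black), without Tmem173iΔmye replicate 1 (orange) and without Tmem173fl/fl replicate 1 (green). Without Tmem173iΔmye replicate 1, Slfn4 is at 0.81 and Slfn5 at 0.54, and Slfn1, Slfn2 and Slfn8 are near 0.

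Tmem173iΔmye replicate 1 stood above the other tumors to a different degree in each member. Its CPM over the mean of the 5 other tumors was 4.23 for Slfn1, 3.96 for Slfn5, 3.13 for Slfn2, 2.18 for Slfn4 and 1.95 for Slfn8, but 1.15 for Slfn9 and 1.11 for Slfn3. The mean CPM of the 2 remaining Tmem173iΔmye tumors over that of Tmem173fl/fl was 1.75 for Slfn4 and 1.45 for Slfn5. For Slfn1, Slfn2, Slfn8 and Slfn9 the same ratio was 1.05, 0.979, 0.962 and 0.835. Slfn4 and Slfn5 had higher values in all 3 Tmem173iΔmye tumors, narrowly so in replicate 2. The higher means of Slfn1, Slfn2 and Slfn8 came from replicate 1 of that group. Slfn8 also moved with Tmem173fl/fl replicate 1, without which its log2 fold change was 0.78 by edgeR.

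Summed over the 7 members, the Schlafen level was 82.0, 49.1 and 49.9 FPKM in Tmem173fl/fl and 163, 79.6 and 89.3 FPKM in Tmem173iΔmye tumors, and the groups overlapped. Slfn4 made up 66.7, 41.6 and 49.2% of this sum in Tmem173fl/fl and 58.2, 70.3 and 68.1% in Tmem173iΔmye tumors. Without Slfn4 the sum was 27.3, 28.7 and 25.3 FPKM against 67.9, 23.6 and 28.4 FPKM, so outside Tmem173iΔmye replicate 1 the remaining family was at a like level in both groups. The share of Slfn9 was 7.66, 26.5 and 18.0% against 6.25, 8.90 and 9.65%. The 2 tumors in which Slfn4 took its smallest share, Tmem173fl/fl replicates 2 and 3, were those in which Slfn9 took its largest. Because the shares are parts of the same sum, a smaller share of Slfn4 by itself raises those of the other members. Slfn4 over Slfn9, as a ratio of FPKM, was 8.71, 1.57 and 2.74 in Tmem173fl/fl and 9.32, 7.90 and 7.06 in Tmem173iΔmye tumors, which overlapped through Tmem173fl/fl replicate 1 (exact permutation p = 0.3 on log2 ratios).

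Whole tumor RNA holds many cell types, and fewer cells of a type cannot be told apart from less RNA per cell. Each member was also set against a list of 10 leukocyte genes, which does not follow single types of leukocyte. The measure was log2(CPM + 1) of the member minus the mean log2(CPM + 1) of the list. For Slfn4 this difference was 2.43, 1.89 and 1.93 in Tmem173fl/fl and 3.15, 2.55 and 3.20 in Tmem173iΔmye tumors. The groups stayed apart, by 0.88 between the means (exact two-sided permutation p = 0.1, the smallest possible). For Slfn5 the means differed by 0.77 with overlapping groups (exact permutation p = 0.2). For Slfn1 and Slfn2 they differed by 0.34 and 0.22, for Slfn9 by -0.38 and for Slfn3 by -0.37, and the exact permutation p lay between 0.4 and 0.8. For Slfn8 the means, both 2.58 below the leukocyte list, differed by -0.0002 (exact permutation p = 1.0).

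Lists of marker genes gave RNA levels of markers of several cell types, which are not counts of cells. Over all tested genes, 49.4% were above 0 and 3.23% were higher with an unadjusted p under 0.05 from edgeR. These shares stand beside every count in this paragraph. Of the 10 leukocyte genes, 9 were higher in Tmem173iΔmye tumors and 1 of them had an unadjusted p under 0.05 from edgeR. Their summed level was 283 to 500 CPM in Tmem173fl/fl and 320 to 477 CPM in Tmem173iΔmye tumors. The 12 macrophage and monocyte genes, of which 9 were higher and 0 passed that limit, summed to 622 to 928 and 604 to 995 CPM. The neutrophil list had 5 of 6 tested genes higher, none under that limit by edgeR, with sums of 69.5 to 216 and 116 to 393 CPM, and Camp, a marker of immature neutrophils, was at 3 counts or fewer in every tumor. T cell genes, of which 6 of 7 tested were higher, summed to 24.7 to 47.9 and 34.4 to 50.7 CPM, and B cell genes, of which 0 of 6 were higher, to 2.76 to 135 and 6.0 to 68.7 CPM. The sums of each of these lists overlapped between the groups. Those of the 8 cytotoxic and natural killer cell genes did not, with 8.45, 3.33 and 6.66 CPM in Tmem173fl/fl and 19.1, 11.3 and 12.03 CPM in Tmem173iΔmye tumors, so they lay apart as Slfn4 and Slfn5 did. All 4 tested genes of that list were higher, at a median log2 fold change of 1.23. Of them 1, Gzmb, had an unadjusted p under 0.05 from edgeR. It encodes granzyme B and is named here after its value was seen. The paper reports Gzmb as lower in Tmem173iΔmye tumors by qPCR, the other direction, and the reason was not tested. The part of this list in the values of Slfn4 and Slfn5 was not tested. The highest neutrophil sum, 393 CPM, was in Tmem173iΔmye replicate 1, the tumor highest in 5 members, and its part in their values was not tested. The 10 colon epithelial genes, the tissue marker, summed to 11667 to 13905 CPM over the 6 tumors.

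**Figure D3:**
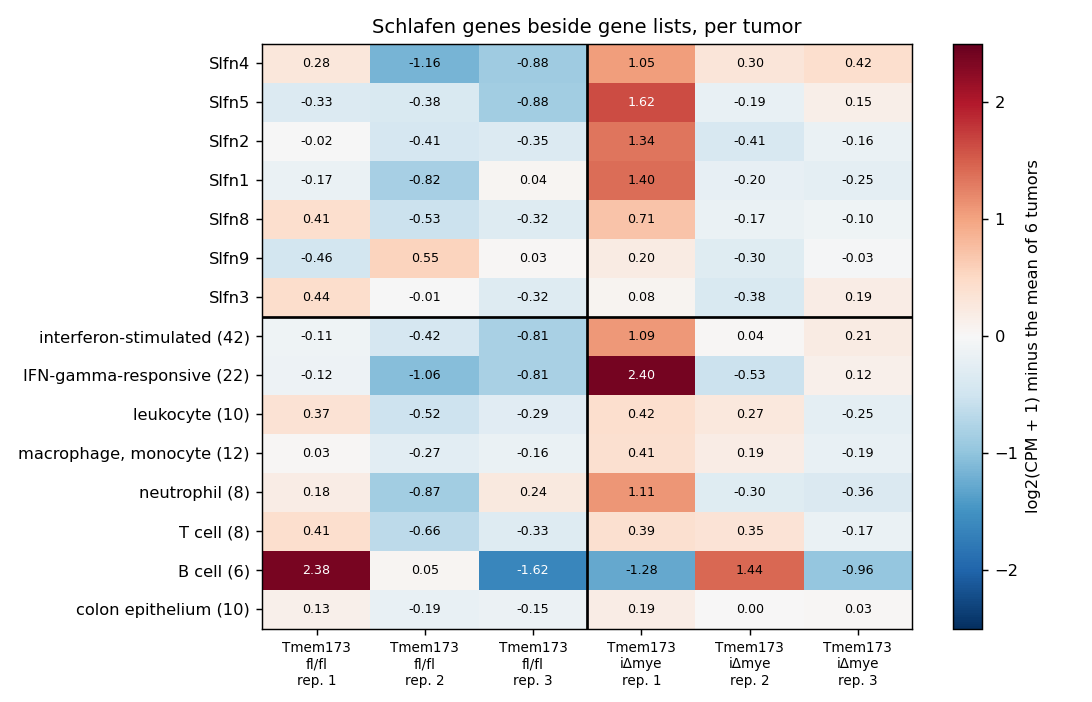
Level of each Schlafen gene and mean level of each gene list (number of genes in brackets) in the 6 tumors, as log2(CPM + 1) minus the mean of the 6 tumors, red above and blue below it. The column of Tmem173iΔmye replicate 1 is red for Slfn5, Slfn1, Slfn2 and Slfn4, for both interferon lists and for the neutrophil list. The rows of Slfn9 and Slfn3 do not follow this tumor.

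Interferon genes were examined because Schlafen genes are interferon-inducible, and their lists were chosen with earlier results of these data known. Over all tested genes, 49.4% were above 0 on the log2 scale. Among 42 other interferon-stimulated genes, such as the antiviral Ifit, Oas and Mx genes, all 42 were above 0, at a median of 0.98. Of these, 26 had an unadjusted p under 0.05 from edgeR, all higher in Tmem173iΔmye tumors, against 3.23% of all genes. This count was 14 without Tmem173fl/fl replicate 2, 13 without Tmem173fl/fl replicate 3 and 11 without Tmem173iΔmye replicate 1. Ifit3 was at 2.12 (SE 0.47), Ifit3b at 1.91 (SE 0.47) and Usp18, which removes ISG15 and dampens interferon receptor signalling, at 1.01 (SE 0.26) on the log2 scale, each with an adjusted p of 0.742 from edgeR. With DESeq2 the adjusted p was 0.00484 for Ifit3, 0.0258 for Ifit3b and 0.111 for Usp18. The mean log2(CPM + 1) of this list was 4.53, 4.22 and 3.83 in Tmem173fl/fl and 5.73, 4.68 and 4.85 in Tmem173iΔmye tumors, without overlap as for Slfn4 and Slfn5. From gene set enrichment, the paper reports type I interferon pathways as suppressed in Tmem173iΔmye tumors. That is the other direction from this list, and the reason was not tested.

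Genes that respond mainly to interferon gamma were, as a list, also highest in Tmem173iΔmye replicate 1, and whether their pattern differs was not tested. All 21 tested of 22 were above 0, against 49.4% of all genes, with a median log2 fold change of 2.03. Of these, 16 had an unadjusted p under 0.05 from edgeR, all higher in Tmem173iΔmye tumors, against 3.23% of all genes. This count was 2 when any 1 of the same 3 tumors was left out. Irgm2 was at 1.59 (SE 0.30), Gbp6 at 2.09 (SE 0.63) and Igtp at 2.67 (SE 0.89) on the log2 scale, all of them GTPases that act against intracellular pathogens and each with an adjusted p of 0.742 from edgeR. Irgm2 had an adjusted p of 0.000755 with DESeq2 and of 0.0437 with edgeR without the filter, while Gbp6 and Igtp stayed above 0.05 in both. The list's mean log2(CPM + 1) was 4.59, 3.65 and 3.90 in Tmem173fl/fl and 7.11, 4.18 and 4.83 in Tmem173iΔmye tumors, with overlap and with Tmem173iΔmye replicate 1 far above the rest. Without that tumor the median log2 fold change was 0.43, against 0.59 for the interferon-stimulated list.

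None of the 10 interferon ligands reached the filter. Ifng, the gene of interferon gamma, had 0, 0 and 2 counts in Tmem173fl/fl and 50, 0 and 3 counts in Tmem173iΔmye tumors, so its reads were almost all in the tumor in which Slfn1, Slfn2, Slfn4, Slfn5 and Slfn8 were highest. Whether they are linked was not tested. Ifnb1 had 1 count in each of 2 Tmem173iΔmye tumors, and 8 of the 10 ligands had 3 counts or fewer in every tumor. Of 14 receptor and signalling genes, 8 were above and 6 below 0, with a median log2 fold change of 0.02. Of these, 2 had an unadjusted p under 0.05 from edgeR, Irf9 at 0.47 (SE 0.155, unadjusted p = 0.0175) and Stat2 at 0.67 (SE 0.287, unadjusted p = 0.0473), both parts of a complex that binds the ISRE. Over all genes 3.23% were higher with such a p, and the count was 1 without Tmem173fl/fl replicate 2 and 0 without Tmem173fl/fl replicate 3 or Tmem173iΔmye replicate 1.

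The tested genes nearest to each member in their pattern over the 6 tumors were found by the root mean square difference of centred log2(CPM + 1). For Slfn5 these included Cd274, which encodes the checkpoint ligand PD-L1, at 0.168 and Grem1, a BMP antagonist of stromal cells, at 0.172. Cd274 had 12.5, 9.40 and 8.46 CPM in Tmem173fl/fl and 57.2, 12.03 and 15.1 CPM in Tmem173iΔmye tumors. For Slfn4 the nearest were Cox7a1 at 0.162, Cox6b2 at 0.170 and Tomm7 at 0.193, all genes of mitochondrial proteins. Tomm7 had 44.0, 11.7 and 18.1 CPM against 79.7, 44.5 and 36.1 CPM, low as Slfn4 was in Tmem173fl/fl replicates 2 and 3. For Slfn9 they were Kif24 at 0.0654, E2f1, a regulator of the entry into S phase, at 0.0662 and Arc at 0.0913. E2f1 had 12.4, 23.9 and 16.1 CPM against 19.6, 13.2 and 14.7 CPM, highest as Slfn9 was in Tmem173fl/fl replicate 2.

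For Slfn8 the nearest genes were Cd86, a costimulatory ligand of antigen-presenting cells, at 0.0765, Gm44349 at 0.0771 and Gm20234 at 0.0833. For Slfn2 they were Ighv5-16 at 0.0504, Nr2c2ap at 0.0833 and Nod1, a sensor of bacterial peptidoglycan, at 0.118. For Slfn1 they were Clec4d, a lectin receptor of myeloid cells, at 0.151, Ighv9-4 at 0.194 and Insl6 at 0.197. Small differences come easily to genes of low level, as Ighv5-16 with 0.13 to 2.71 CPM shows. Among the members themselves, Slfn1 and Slfn2 were closest at 0.258 and Slfn2 and Slfn5 next at 0.317, while Slfn4 and Slfn9 were furthest apart at 0.963. With 6 tumors these distances are descriptions.

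**Figure D4:**
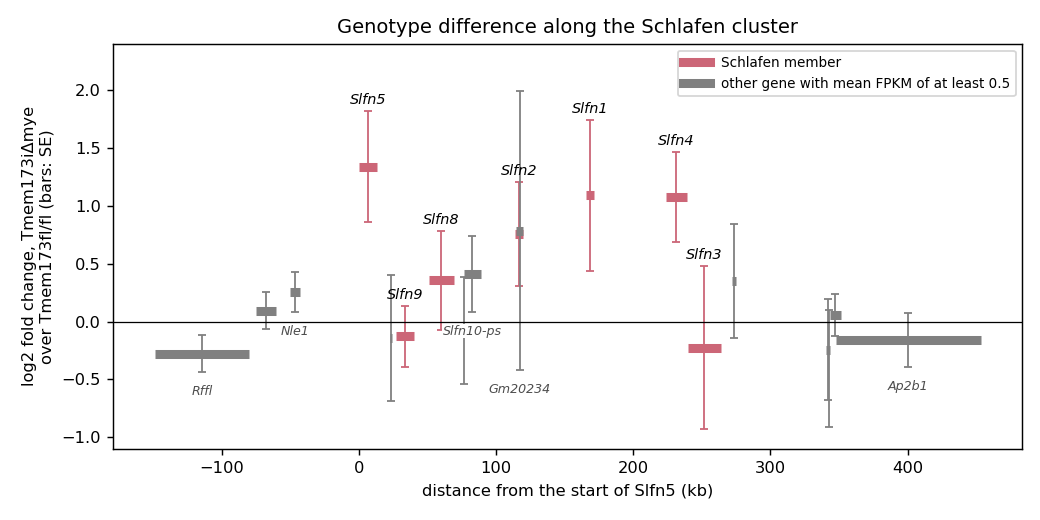
Log2 fold change of Tmem173iΔmye over Tmem173fl/fl (edgeR, bars of 1 SE) for Schlafen genes (red) and other tested genes (grey) against the distance in kb from the start of Slfn5, with thick lines as long as the genes. Mir7679, at -1.98, is left out of the plot, and the neighbours on both sides of the cluster lie near 0.

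Most genes around the cluster were near 0. Within 100 kb of the cluster, 12 other genes were tested besides Slfn10-ps, of which 5 were above and 7 below 0, with a median log2 fold change of -0.11 and none with an unadjusted p under 0.05 from edgeR (smallest 0.0911). The widest values among them, -1.98 for Mir7679 and 0.79 for Gm20234, rested on 0 to 4 and 0 to 18 counts per tumor. Inside the cluster, Slfn9 at -0.13 lay between Slfn5 at 1.34 and Slfn8 at 0.36, so adjacent members took different values. Slfn10-ps, a transcribed pseudogene between Slfn8 and Slfn2, had 28, 43 and 35 counts against 56, 39 and 48 and a log2 fold change of 0.41 (edgeR, SE 0.33, adjusted p = 0.770). Slfn14, which encodes a ribosome-associated nuclease, had 0 or 1 count in every tumor, and Slfnl1, a Schlafen-like gene on chromosome 4, had 1 to 5.

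Related sequence limits how far counts can be given to 1 member. Of the 50-base words of the transcripts in GENCODE M21, 15.6% of those of Slfn3, 14.6% of Slfn8, 11.5% of Slfn9 and 10.8% of Slfn4 also occurred in another gene. Slfn4 shared 6.28% with Slfn3, and Slfn8 and Slfn9 shared 10.1% and 8.10% with Slfn10-ps. For Slfn2 the share was 4.27%, for Slfn5 3.37% and for Slfn1 0.606%. The counts of Slfn3, Slfn8, Slfn9 and Slfn4 are uncertain by the reads that such words could split. Slfn2 lies opposite the antisense gene Gm20234 over 4927 bases and Slfn5 opposite Slfn5os, which had 0 counts.

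Between 15329810 and 16533732 reads were counted on genes per tumor. Tmem173 itself had 1705 to 2911 counts in Tmem173fl/fl and 1953 to 2291 in Tmem173iΔmye tumors (0.0015 on the log2 scale, SE 0.24), so whole tumor RNA did not tell the genotypes apart. Reads of Y-linked genes were found in 3 tumors, 3547 of them in replicate 1 of Tmem173fl/fl and 2875 and 2655 in replicates 1 and 2 of Tmem173iΔmye, against 2 or fewer in the remaining 3. Among the 3 tumors with Y-linked reads Slfn4 was at 220.1 CPM in Tmem173fl/fl and at 376 and 223 CPM in Tmem173iΔmye, and among those without them at 80.9 and 97.9 CPM against 242 CPM. With Y-linked reads as a term in edgeR, the log2 fold change was 0.94 for Slfn4 (unadjusted p = 0.0121) and 1.10 for Slfn5 (unadjusted p = 0.0628), and the value of Slfn9 turned to 0.046.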

How the data were processed

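RNA of whole AOM+DSS-L tumors (3 Tmem173fl/fl, 3 Tmem173iΔmye) was sequenced from polyA libraries. The authors deposited 1 table with raw read counts per gene and FPKM. Per the labels, the submitters' processing notes name CASAVA 1.8, fastp, HISAT2 2.0.5, featureCounts 1.5.0-p3, DESeq2 1.20.0 and GRCm38 (mm10); the strand setting of the counting is not given in the sources used here. The deposited FPKM equalled counts over gene length, median-of-ratios factor and geometric mean of the totals (largest relative difference 4.96e-07). The table's columns of group means, fold changes and p-values from the authors' own comparison were not used.

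The quasi-likelihood test of edgeR 4.0.16 under R 4.3.3 was run on the counts with TMM, genotype as the only term, Benjamini-Hochberg adjustment and a filter of mean FPKM of at least 0.5. Slfn3 came from the fit without the filter. Standard errors were taken from the fold change and the F statistic. FPKM and CPM served as levels, and the pseudocount on CPM was 1. Single values were compared by exact two-sided permutation tests (scipy 1.17.1, Python 3.11.15). At this depth 3 counts or fewer allow no fold, and this floor covers counting error only. The edgeR test was tried on simulated counts with known fold changes, and the other steps were not.

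Samples were grouped by the genotype label. The members and gene lists were chosen with earlier results of these data known. Named genes are the members, other Schlafen genes, tested genes within 100 kb of the cluster, the 3 genes with the smallest p in each interferon list (the ligands were added after their values were seen) and the 3 genes nearest to each member; 1 item under this rule is not reported here. Alternatives were median-of-ratios scaling, dropping the filter, raising it to a mean FPKM of 1, DESeq2 1.42.0, limma 3.58.1 on log2(FPKM + 1), the replicate block, Y-linked reads as a term, each tumor left out, and, for levels relative to leukocytes, a pseudocount of 0.5, median-of-ratios scaling, Ptprc alone and differences within replicate numbers. The count of genes without overlap was added after the data were seen.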

Additional observations from a re-analysis of the deposited data

How the results depend on the processing

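Leaving out 1 tumor at a time gave 0 to 3 members with an unadjusted p under 0.05 (0 without Tmem173fl/fl replicate 2 or 3 or Tmem173iΔmye replicate 1), and 3 to 6 members above 0. It gave 218 to 636 genes past both limits of fold and p, 0 to 1 genes at an adjusted p under 0.05, and 11 to 30 interferon-stimulated, 2 to 21 interferon-gamma-responsive and 0 to 3 receptor and signalling genes under an unadjusted 0.05. With Y-linked reads as a term, 1 member, 211 genes past both limits, 3 interferon-gamma-responsive genes and 1 receptor or signalling gene were called. With limma on log2(FPKM + 1) these were 1 member, 136, 1 and 1. Without the filter, 872 genes passed both limits and 6 the adjusted p, and Slfn2 also came under an unadjusted 0.05. DESeq2 put 28 genes under the adjusted p, and a mean FPKM of at least 1 left 1 receptor or signalling gene. The median log2 fold change of the interferon-gamma-responsive list was 0.43 to 2.45 over the tumors left out.

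Where a value changed sign, the new value was short of an unadjusted p of 0.05 in every case. Over the tumors left out, the log2 fold change ran from -0.034 to 1.06 for Slfn2, -0.61 to 0.47 for Slfn3, -0.059 to 0.78 for Slfn8, -0.35 to 0.17 for Slfn9, -0.35 to 0.87 for Insl6, -0.14 to 0.83 for Nod1, -0.088 to 0.58 for Cd86, -0.090 to 1.96 for Gm44349, -0.78 to 2.80 for Gm20234, -0.47 to 0.16 for Kif24, -0.34 to 0.15 for E2f1 and -0.23 to 0.42 for Arc. Slfn9 was at 0.046 with Y-linked reads as a term. Relative to leukocyte genes, the difference ran from -0.065 to 0.66 for Slfn1, -0.18 to 0.62 for Slfn2, -0.14 to 0.22 for Slfn8 and -0.88 to 0.065 for Slfn9, and for Slfn8 was 0.024 with a pseudocount of 0.5, 0.0010 with median-of-ratios scaling and 0.077 against Ptprc alone. Slfn4 stayed above 0 in all its alternatives, at 0.77 to 1.09 relative to leukocytes over the tumors left out. The causes of these moves were not tested, beyond the smaller number of tumors.

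The titles number the tumors of each group 1 to 3. Deviations from the group means correlated at 0.315, 0.00846 and 0.154 across genes for same-numbered tumors. For the other pairs the correlations ran from -0.374 to 0.223. Deviations within a group of 3 depend on each other, so these values cannot settle whether the samples are paired. The samples were taken to share only a number, because the titles give no more. A fit with this number as a block put 377 genes past both limits, with a log2 fold change of 1.18 for Slfn4 and 1.13 for Slfn5 (unadjusted p = 0.000273 and 0.0144, adjusted p = 0.240 and 0.442, from edgeR). Replicates 1 correlated best with each other; Tmem173fl/fl replicate 2 correlated best with Tmem173iΔmye replicate 3 (0.223). With 3 tumors a group, genes of low count such as Slfn3 and Slfn1 were limited by depth.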
